A study of Homo sapiens with 12 samples.

Results

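The NRF2 antioxidant pathway was followed through 37 genes of its core: the transcription factor, its regulators and the enzymes, carriers and iron-storage subunits it is known to drive. They were taken by name from the deposited expression table, which held all 37 among its 38516 genes, with every library of the study. RNA sequencing had been carried out on KYSE150 and KYSE510, established human lines grown from squamous carcinoma of the esophagus. In each line, cells with the long non-coding RNA HCP5 silenced were compared with control cells, with 3 libraries in each of the 4 groups. The groups were KYSE150 control, KYSE150 HCP5-silenced, KYSE510 control and KYSE510 HCP5-silenced, all grown in RPMI-1640 with fetal bovine serum, and total RNA was isolated with TRIzol. Sample titles begin with shc in every control and sh4 in every silenced library of both lines, and the reagent behind each prefix is not described. The number of clones or pools behind a group is not given in the labels. Nor is it stated whether replicates came from separate cultures, so p-values measure only the spread between these libraries.

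NRF2, the protein of NFE2L2, is a transcription factor that is made continuously and destroyed quickly. KEAP1 holds it and passes it to an ubiquitin ligase built on CUL3. When oxidants or electrophiles modify KEAP1, NRF2 escapes, pairs with a small MAF protein such as MAFG and binds antioxidant response elements, short DNA words near genes for glutathione synthesis, thioredoxin, NADPH production, quinone and carbonyl reduction, iron storage and drug export. In squamous carcinomas, the esophagus included, mutations of NFE2L2 or KEAP1 are a known route by which tumours keep the pathway active.

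The core of the antioxidant response element, TGACNNNGC, was looked for on both strands of the RefSeq promoter windows (300 bases, from 250 before to 50 after a transcript's start, GRCh38.p14). Of the 27 members with an entry, 9 held it (CBR1, EPHX1, GCLM, GPX2, GSTP1, KEAP1, ME1, PGD and TXNRD1). Counted by entry, this was 10 of 35, or 28.6%, against 13.3% of all 35116 entries. The sites below belong to the members whose values carry much of what follows, and the capitals mark the core word with 10 bases on either side.
KEAP1: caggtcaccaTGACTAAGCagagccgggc
GCLM: tggaagacaaTGACTAAGCagaaatcgta
PGD: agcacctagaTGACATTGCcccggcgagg
GPX2: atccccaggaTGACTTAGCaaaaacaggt
GSTP1: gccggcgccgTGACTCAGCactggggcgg
EPHX1: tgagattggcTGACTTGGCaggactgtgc
These lie at chr19:10502784-10502812 (plus strand as printed) for KEAP1, chr1:93909446-93909474 (plus) for GCLM, chr1:10398853-10398881 (minus) for PGD, chr14:64942849-64942877 (plus) for GPX2, chr11:67583736-67583764 (plus) for GSTP1 and chr1:225825266-225825294 (plus) for EPHX1. Counted from the RefSeq start, the word began at -31 in KEAP1, -34 in GCLM, -201 in PGD, -122 in GPX2, -66 in GSTP1 and -78 in EPHX1. KEAP1 also held another match, which is not printed, at -54 on the strand of the gene. The GSTP1 word also contains TGACTCA, the word bound by AP-1 factors. A match describes these letters only, and a window without one says nothing about binding elsewhere. The KYSE510 minus KYSE150 difference among control libraries ran from -1.19 to 6.37 on the log2 scale (median 1.32) over the 9 members with a match, and from 0.09 to 7.75 (median 1.27) over the 18 without.

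Values are RPKM, which divides reads by the length of the exons and by library depth, and differences are on the log2(RPKM + 0.5) scale, which understates the change of low genes. Libraries held 20035025 to 28202422 reads assigned to genes. Every silenced KYSE150 library was deeper than every control of that line. Over the 17823 genes tested, the first principal component (82.9% of variance) separated the lines, while on the second (5.43%) KYSE150 control replicate 3 lay at 13.0, between silenced replicates 1 (-2.97) and 2 (14.5) and away from controls 1 and 2 (-22.2 and -34.1). That library was also the highest of its group for 27 of the 37 members, so the KYSE150 silencing results are given with and without it. Squamous markers were present (KRT5 at 205 to 1423 RPKM), although SOX2, a squamous lineage factor, was at 0.0590 to 0.252 RPKM in KYSE150. Summed fibroblast markers stayed at or under 0.901 RPKM and endothelial markers at or under 2.09, and of the leukocyte markers only CD68 reached 1 RPKM.

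HCP5 itself (chromosome 6, 31400702 to 31477506, GRCh38) had lower values in silenced libraries. With limma on the deposited values the amount did not pass the threshold in either line. In KYSE150 it stood at 0.779, 0.745 and 0.786 RPKM in controls and 0.315, 0.418 and 0.579 in silenced replicates 1 to 3. The KYSE510 controls had 0.914, 1.85 and 1.40 RPKM and the silenced libraries 0.505, 0.951 and 0.948. The groups were apart in KYSE150 and overlapped in KYSE510. The limma difference was -0.45 (SE 0.20, adjusted p = 0.267) in KYSE150 and -0.53 (SE 0.20, adjusted p = 0.646) in KYSE510, and the mean of both passed with the replicate number as a block (-0.49, adjusted p = 0.0295).

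KYSE510 carried far more RNA of this pathway than KYSE150. The 37 members took 0.362% to 0.413% of reads in KYSE150 controls and 0.986% to 1.06% in KYSE510 controls. The median member stood at 8.75 RPKM in KYSE150 controls and 29.7 in KYSE510 controls, and 11 members were under 1 RPKM in KYSE150 controls but 0 in KYSE510 controls. In bulk RNA, fewer cells with a transcript and less of it per cell cannot be told apart.

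**Figure D1:**
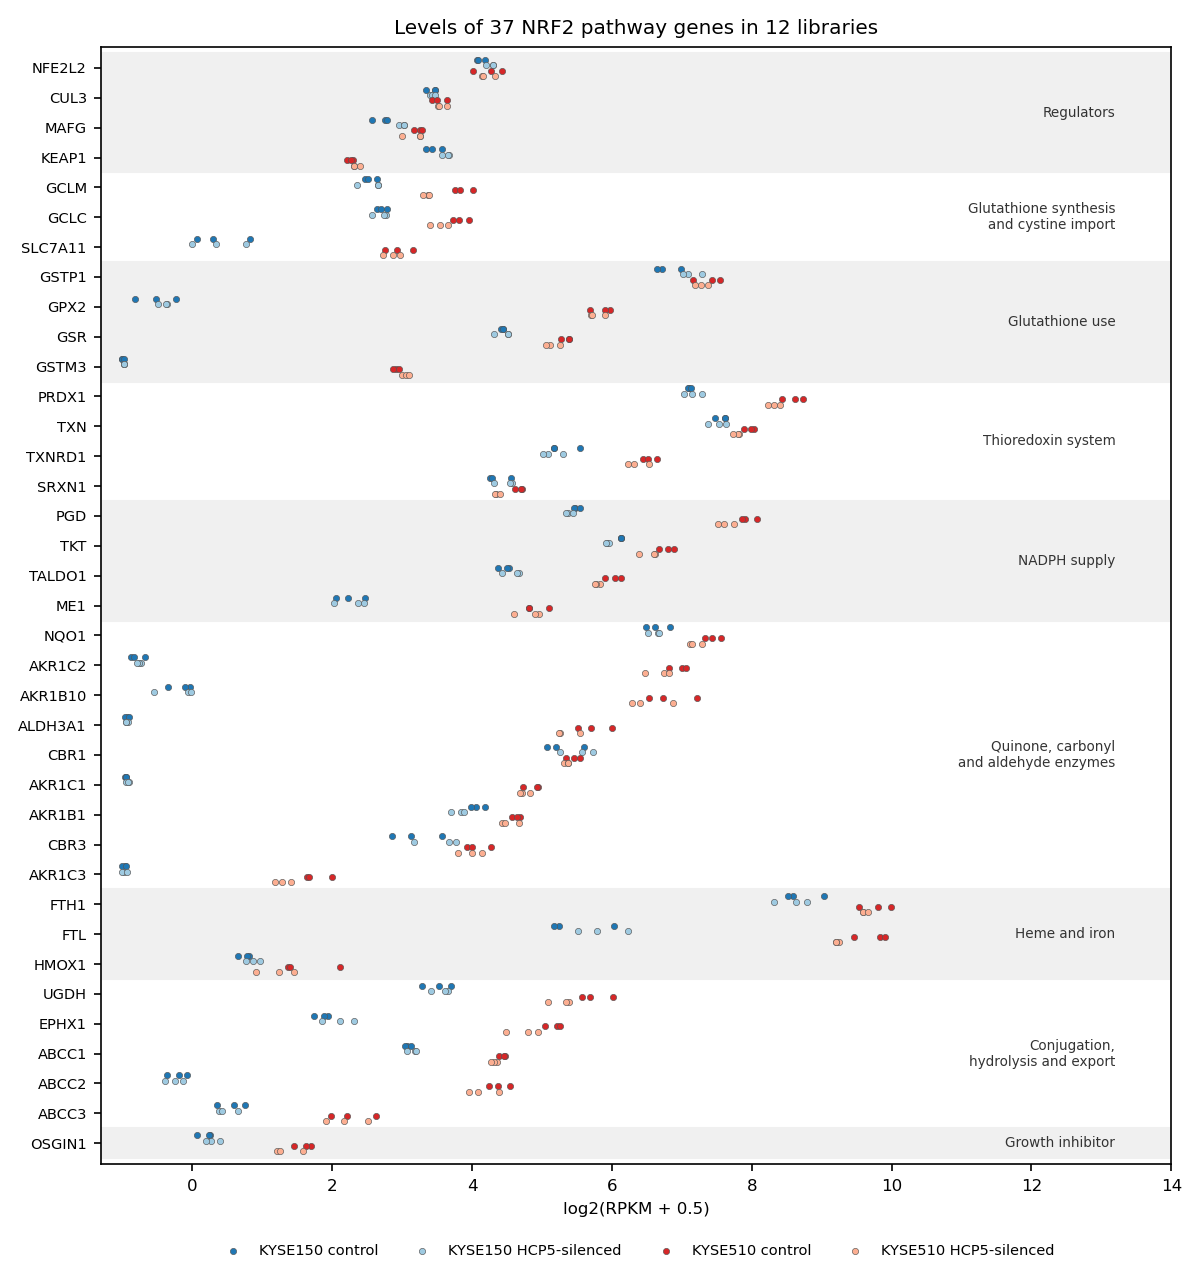
Level of each of the 37 members in each of the 12 libraries, on the log2(RPKM + 0.5) scale (x axis), with members grouped by role (y axis) and 1 point per library, coloured by line and treatment. KYSE510 points (red, orange) lie to the right of KYSE150 points (blue) for most members, most of all for AKR1C2, AKR1B10, ALDH3A1, GPX2 and AKR1C1, while KEAP1 lies to the left.

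With limma, 33 of the 37 members were higher in KYSE510 controls and 1 was lower, at an adjusted p under 0.05. Over all genes tested, 28.3% were higher and 33.7% lower. The median difference was 1.36 for the members and -0.07 for all genes. Of the 37 members, 8 passed the filter on low values (0.5 RPKM in at least 3 libraries) only through KYSE510, and so had to differ: ABCC2, AKR1B10, AKR1C1, AKR1C2, AKR1C3, ALDH3A1, GPX2 and GSTM3. Their differences are given as descriptions, with no p. Among the 29 members above that level in both lines, 25 were higher and 1 lower, with a median of 1.06. The shares over all genes also include genes that passed through 1 line only, 9.21% of those tested through KYSE510 and 8.01% through KYSE150. A share over the genes above that level in both lines was not computed. Without KYSE150 control replicate 3, 35 of all 37 members, the 8 not set aside, passed the threshold, with a median of 1.38. The silenced libraries, which share no library with the controls, gave 28 higher and 1 lower, against 24.2% and 39.8% of all genes, with a median of 1.16 for the members and -0.19 for all genes. All 28 were also higher among controls. Among the 29 members above the filter in both lines, 20 were higher and 1 lower in silenced libraries, with a median of 0.79.

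**Figure D2:**
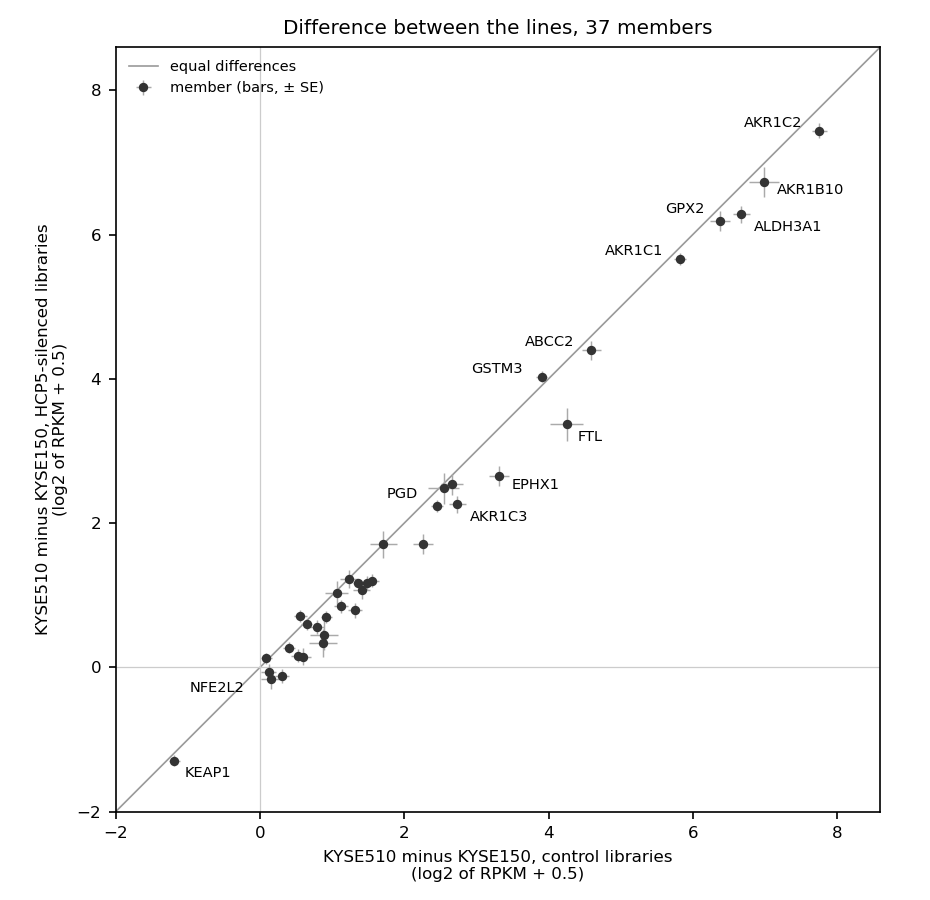
KYSE510 minus KYSE150 difference of each of the 37 members among control libraries (x axis) and among HCP5-silenced libraries (y axis), both on the log2(RPKM + 0.5) scale with bars of 1 SE. Points run from KEAP1 at -1.19 and -1.29 to AKR1C2 at 7.75 and 7.44, and 34 of the 37 lie below the line of equal differences.

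Of the 4 regulators, 1 was higher in KYSE510 controls, 1 was lower and 2 did not pass the threshold. NFE2L2 (chromosome 2, 177227595 to 177392697), the gene for NRF2 itself, stood at 16.4, 16.4 and 17.7 RPKM in KYSE150 controls and 15.7, 20.9 and 18.7 in KYSE510 controls. The lines overlapped, and the difference was 0.12 (SE 0.10, limma adjusted p = 0.323), with 17.6% of its exon bases shared with another gene on the same strand. KEAP1 (chromosome 19, 10486120 to 10503741), which holds NRF2 for destruction, stood at 10.3, 9.66 and 11.4 RPKM in KYSE150 controls. In KYSE510 controls it stood at 4.11, 4.44 and 4.32 RPKM. Every KYSE510 library was below every KYSE150 library. KEAP1 was the only member lower in KYSE510 past the threshold, by -1.19 (SE 0.08, limma adjusted p = 1.43e-07) among controls and -1.29 (adjusted p = 7.1e-08) among silenced libraries. The difference was below 0 for 1 member among controls and for 4 among silenced libraries. CUL3, the ligase scaffold, differed by 0.09 (adjusted p = 0.333), whereas MAFG, the small MAF partner, was higher in KYSE510 controls by 0.53 (SE 0.09, adjusted p = 0.000331) but not past the threshold in silenced libraries (0.16, adjusted p = 0.131).

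The quinone, carbonyl and aldehyde enzymes held 4 of the 5 widest gaps, in members that were nearly silent in KYSE150. Of the 9, 5 (AKR1B10, AKR1C1, AKR1C2, AKR1C3 and ALDH3A1) had to be higher in KYSE510 by the filter, and of the other 4, NQO1, AKR1B1 and CBR3 were higher in its controls. AKR1C2 (chromosome 10, 4987400 to 5018031), an aldo-keto reductase that reduces steroids and carbonyls, stood at 0.0464, 0.0603 and 0.123 RPKM in KYSE150 controls. In KYSE510 controls it stood at 127, 133 and 112 RPKM. The KYSE150 values rest on 32 reads in all against 61375, a ratio of read rates of 1579 (exact 95% interval 1119 to 2309, counting error only). On the log2 scale the difference was 7.75 (SE 0.10).

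AKR1B10 (chromosome 7, 134527592 to 134541408), which reduces retinal and lipid aldehydes, stood at 0.286, 0.475 and 0.429 RPKM in KYSE150 controls and 148, 105 and 91.8 in KYSE510 controls, a difference of 6.99 (SE 0.21). ALDH3A1 (chromosome 17, 19737984 to 19748943), which oxidises aldehydes, stood at 0.0255, 0.0124 and 0.0337 RPKM in KYSE150 controls and 45.2, 51.4 and 63.7 in KYSE510 controls, a difference of 6.67 (SE 0.12). AKR1C1 (chromosome 10, 4963253 to 4983283), next to AKR1C2, stood at 0.0114, 0.0167 and 0.0201 RPKM in KYSE150 controls and 30.3, 29.9 and 26.1 in KYSE510 controls, a difference of 5.82 (SE 0.08). These 3 genes were near 0 in every KYSE150 library, silenced ones included, where they reached at most 0.489 RPKM. AKR1C3, the third gene of that cluster, was much lower than its neighbours in KYSE510 controls at 2.62, 3.48 and 2.67 RPKM, against 3 reads over all KYSE150 controls (difference 2.74, SE 0.11). AKR1C1, AKR1C2 and AKR1C3 are related genes of 1 family, so reads could be split among them in the counting, which was not tested.

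Other enzymes of this group differed less. NQO1, the quinone reductase often used as a readout of NRF2, stood at 97.6, 89.6 and 114 RPKM in KYSE150 controls and 188, 173 and 161 in KYSE510 controls. The groups were apart, with a difference of 0.79 (SE 0.10, limma adjusted p = 2.97e-05). AKR1B1, the aldose reductase, was higher by 0.56 (adjusted p = 0.000167) and CBR3, a carbonyl reductase that shares 42.2% of its exon bases with the antisense gene CBR3-AS1, by 0.88 (adjusted p = 0.0022). Among silenced libraries the line difference of CBR3 did not pass the threshold. CBR1, the related carbonyl reductase, did not pass the threshold (0.16, adjusted p = 0.351).

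Of the 4 glutathione-using members, GPX2 and GSTM3 had to be higher in KYSE510 by the filter, and GSR and GSTP1 were higher in its controls with limma. GPX2 (chromosome 14, 64939152 to 64942905), an epithelial glutathione peroxidase, stood at 0.1998, 0.0650 and 0.353 RPKM in KYSE150 controls and 50.8, 62.4 and 59.0 in KYSE510 controls, a difference of 6.37 (SE 0.14). GSTM3, a glutathione transferase, had 1 read over all KYSE150 controls and 2567 over those of KYSE510, a ratio of read rates of 2114 (exact 95% interval 379 to 83513). GSR, which regenerates glutathione, was higher by 0.92 (SE 0.08) and GSTP1, an abundant transferase, by 0.59 (SE 0.12). GSTP1 did not pass the threshold among silenced libraries (0.15, adjusted p = 0.306).

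All 3 members for glutathione synthesis and cystine import were higher in KYSE510. GCLM (chromosome 1, 93885205 to 93909456), the modifier subunit of glutamate-cysteine ligase, stood at 5.06, 5.22 and 5.75 RPKM in KYSE150 controls and 13.0, 15.7 and 13.6 in KYSE510 controls (difference 1.32, SE 0.10, limma adjusted p = 5.92e-07). Its catalytic partner GCLC differed by 1.12 (SE 0.10) and SLC7A11, the cystine importer, by 2.55 (SE 0.22). SLC7A11 was low in KYSE150, at 0.730, 1.27 and 0.544 RPKM in controls, against 8.37, 7.09 and 6.27 in KYSE510 controls.

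The 4 members grouped under NADPH supply, enzymes of the pentose phosphate pathway and malic enzyme, were all higher in KYSE510 controls. PGD (chromosome 1, 10398592 to 10420144), the second dehydrogenase of the pentose phosphate pathway, stood at 44.0, 46.1 and 43.6 RPKM in KYSE150 controls. In KYSE510 controls it stood at 270.0, 239 and 232 RPKM. The difference was 2.45 (SE 0.08, limma adjusted p = 5.49e-10). ME1, malic enzyme, was higher by 2.66 (SE 0.15), TALDO1, transaldolase, by 1.56 (SE 0.09) and TKT, transketolase, by 0.65 (SE 0.08).

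In the thioredoxin system PRDX1, an abundant peroxiredoxin, was higher in KYSE510 controls by 1.48 (SE 0.09), TXNRD1, thioredoxin reductase, by 1.24 (SE 0.12) and TXN, thioredoxin, by 0.40 (SE 0.08). SRXN1, which repairs overoxidised peroxiredoxins, was higher by 0.30 (limma adjusted p = 0.0137) but not in silenced libraries (-0.12, adjusted p = 0.287), and 85.0% of its exon bases are shared with another gene on the same strand. Among the genes for conjugation, hydrolysis and export, ABCC2, an export pump that had to differ by the filter, was at 4.59 (SE 0.13). EPHX1, microsomal epoxide hydrolase, was higher by 3.32 (SE 0.14), UGDH, which makes the donor for glucuronidation, by 2.26 (SE 0.14), and the pumps ABCC3 and ABCC1 by 1.71 and 1.36. OSGIN1, a growth inhibitor, was higher by 1.41 (SE 0.12), at 2.75, 2.60 and 2.23 RPKM in KYSE510 controls. Its mean of 2.52 RPKM was the lowest of the members there, within the spread of HMOX1 at 2.68.

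FTH1 had the highest mean of the members in all 4 groups and FTL the next highest in KYSE510 only, where the ferritin chains stood in another proportion than in KYSE150. FTH1, the heavy chain, stood at 386, 365 and 523 RPKM in KYSE150 controls and 744, 892 and 1013 in KYSE510 controls. FTL (chromosome 19, 48965301 to 48966878), the light chain, stood at 37.3, 35.6 and 64.6 RPKM in KYSE150 controls and 705, 910.5 and 956 in KYSE510 controls. FTH1 and FTL therefore lay within their spread of each other in KYSE510 controls, and FTL was far below FTH1 in KYSE150. The ratio of FTL to FTH1 RPKM was 0.0967, 0.0975 and 0.124 in KYSE150 controls and 0.948, 1.02 and 0.945 in KYSE510 controls. The line difference was 4.25 (SE 0.23, limma adjusted p = 3.1e-08) for FTL, 4.52 without KYSE150 control replicate 3, and 1.06 (SE 0.16, adjusted p = 0.000144) for FTH1. FTH1 shares 62.4% of its exon bases with BEST1 on the opposite strand, and ferritin pseudogenes could take some of these reads: 19 FTH1 pseudogenes summed to 15.3 to 48.2 RPKM and 10 FTL pseudogenes to 0.312 to 4.25. HMOX1, heme oxygenase, was low in both lines, at 1.08, 1.26 and 1.23 RPKM in KYSE150 controls and 2.07, 3.83 and 2.13 in KYSE510 controls (difference 0.87, adjusted p = 0.0022). Among silenced libraries its line difference did not pass the threshold.

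HCP5 silencing was compared with control next, within each line. In KYSE510 most members had lower values in silenced libraries, and 0 passed the threshold with limma on the deposited values, where 0.0393% of all genes passed. At an unadjusted p under 0.05, 16 members were lower and 0 higher, and over all genes 3.37% were lower and 2.98% higher at that level. The difference was below 0 for 34 of the 37 members, with a median of -0.21, against 56.8% of all genes and a median of -0.02. The members' share of reads was 0.986%, 1.06% and 1.02% in the 3 controls and 0.889%, 0.866% and 0.835% in the 3 silenced libraries.

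For 16 members all 3 silenced KYSE510 libraries were below all 3 controls, and 6.87% of all genes tested did this. These were ABCC1, AKR1C2, AKR1C3, EPHX1, FTL, GCLC, GCLM, GSR, NQO1, PGD, PRDX1, SRXN1, TALDO1, TKT, TXN and UGDH. For 2 members, KEAP1 and GSTM3, all silenced libraries were above the controls, and 5.22% of all genes did this. Most members are abundant in this line, so genes with a mean of at least 10 RPKM there were also counted, a level chosen after the values were seen: 15 of 29 members and 8.96% of all such genes had silenced libraries below controls. In same-numbered pairs, 26 members were lower in all 3 pairs, against 21.8% of all genes. The number of members below 0 was 28, 35 and 32 of 37 in pairs 1, 2 and 3, against 41.0%, 59.6% and 60.4% of all genes. When reads recovered from the RPKM were fitted with limma-voom and the replicate number as a block, 13 members were lower at an adjusted p under 0.05 and 0 higher, against 0.875% and 1.35% of all genes. Limma-voom alone gave 0 members and the block alone gave 0. The summed RPKM of the 8 squamous markers also differed between these groups, at 967 to 1179 in controls and 1316 to 1494 in silenced libraries, and its part in the members' values was not tested.

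**Figure D3:**
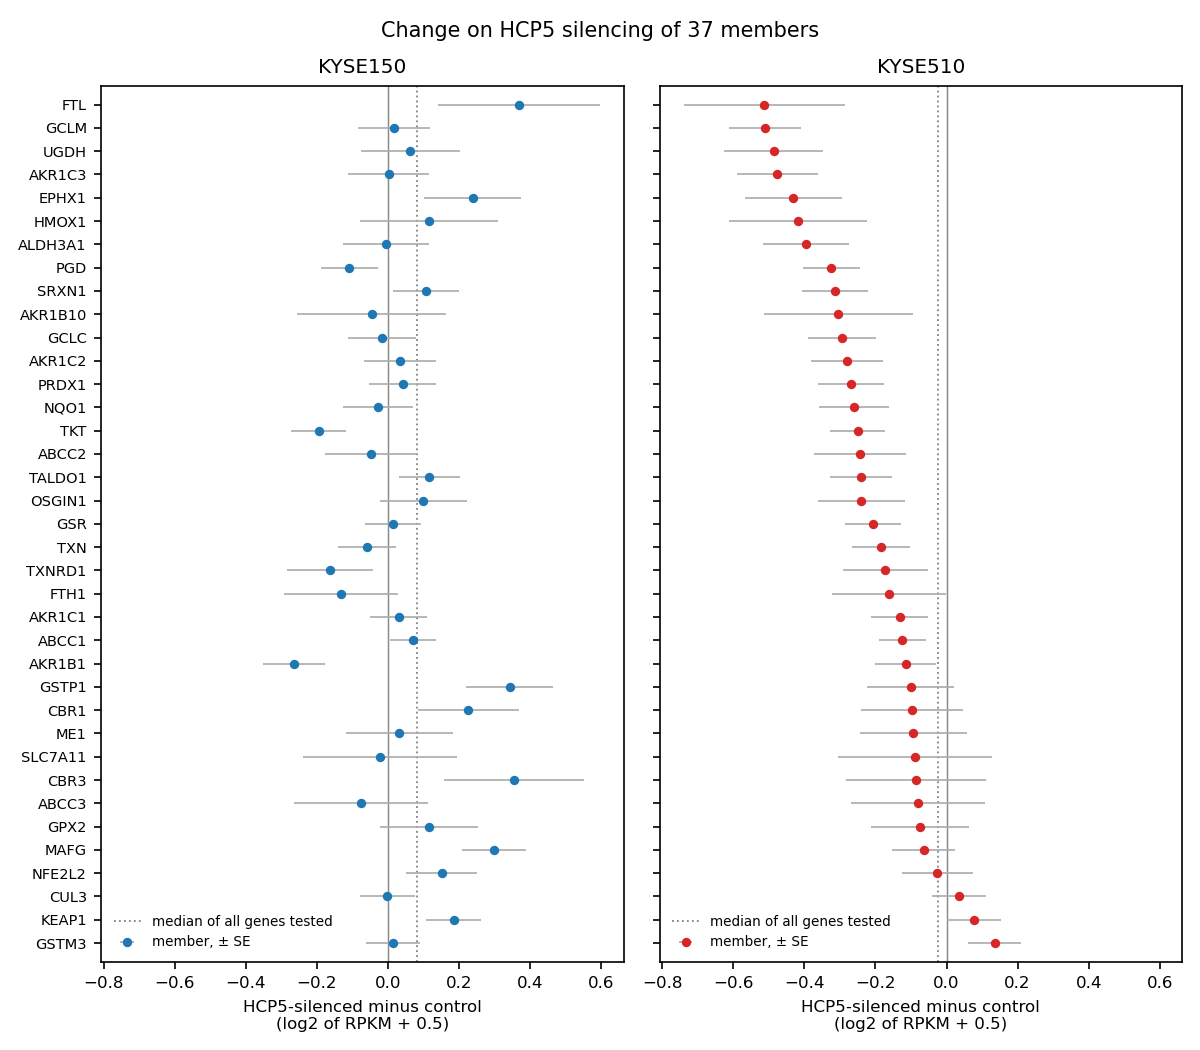
HCP5-silenced minus control difference of each of the 37 members on the log2(RPKM + 0.5) scale (x axis, bars of 1 SE) in KYSE150 (left, blue) and KYSE510 (right, red), ordered by the KYSE510 value, with the median of all genes tested as a dotted line. In KYSE510, 34 members lie below 0, with FTL and GCLM lowest at -0.51, whereas in KYSE150 members lie on both sides of the median of all genes.

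By role, the median difference in KYSE510 was below 0 in each set of targets and near 0 in the regulators. The median difference was -0.29 over the 3 members for glutathione synthesis and cystine import, -0.23 over the 4 of the thioredoxin system, -0.24 over the 4 of NADPH supply, -0.26 over the 9 quinone, carbonyl and aldehyde enzymes, -0.42 over the 3 of heme and iron, -0.24 over the 5 of conjugation, hydrolysis and export, and -0.09 over the 4 glutathione users. Over the 4 regulators it was 0.005. NFE2L2 stood at 15.7, 20.9 and 18.7 RPKM in KYSE510 controls and 17.1, 19.7 and 17.3 in silenced libraries, which overlapped (-0.03, SE 0.10, adjusted p = 0.996).

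GCLM had the smallest p of the members in this line. It stood at 13.0, 15.7 and 13.6 RPKM in KYSE510 controls and 9.85, 9.93 and 9.38 in silenced libraries, 68.9% of the control mean. The groups were apart, with a difference of -0.51 (SE 0.10, unadjusted p = 0.000354, limma adjusted p = 0.162). In KYSE150 it stood at 5.06, 5.22 and 5.75 RPKM in controls and 4.64, 5.83 and 5.82 in silenced libraries, which overlapped (0.02, SE 0.10). AKR1C3 stood at 2.62, 3.48 and 2.67 RPKM in KYSE510 controls and 2.15, 1.93 and 1.77 in silenced libraries, 66.7% of the control mean (-0.48, SE 0.11, adjusted p = 0.28), and was at or near 0 in KYSE150.

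FTL, UGDH and EPHX1 were chosen for description after their values were seen. FTL stood at 705, 910.5 and 956 RPKM in KYSE510 controls and 605, 590.3 and 592 in silenced libraries, 69.5% of the control mean (-0.51, SE 0.23, limma adjusted p = 0.775). UGDH stood at 51.2, 64.3 and 47.1 RPKM in controls and 41.4, 40.2 and 33.5 in silenced libraries (-0.49, SE 0.14, adjusted p = 0.431). EPHX1 stood at 36.8, 37.6 and 32.5 RPKM in controls and 30.3, 27.3 and 21.9 in silenced libraries (-0.43, SE 0.14, adjusted p = 0.521). All 3 had every silenced library below every control. The members that differed most between the lines did not all show this. AKR1C2 did, going from 127, 133 and 112 RPKM to 106, 112 and 88.6 (-0.28, limma adjusted p = 0.635). Its lowest control (112.128 RPKM) and its highest silenced library (112.099) were almost level. GPX2 overlapped, at 51.6, 59.5 and 52.0 RPKM in silenced libraries (-0.08, limma adjusted p = 0.975).

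In KYSE150 the members did not share a direction. With limma 0 of 37 passed the threshold, against 0.499% of all genes, and at an unadjusted p under 0.05 3 members were higher (MAFG, GSTP1 and KEAP1) and 2 lower (AKR1B1 and TKT), against 13.3% and 4.82% of all genes. The median difference was 0.03 for the members and 0.08 for all genes, with 23 of 37 members and 66.1% of all genes above 0. Without control replicate 3 these medians were 0.07 and 0.12. These signs depend on the scaling: with each library centred on its median gene, which moved the median of all genes in this line by -0.13, 8 members were above 0 and 29 below, with a median of -0.10, and 58.9% of all genes were below 0. In KYSE510 centring moved the median of all genes by 0.03 and left 33 of 37 members below 0, against 49.3% of all genes.

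Silenced KYSE150 libraries were all above the controls for 4 members (NFE2L2, KEAP1, MAFG and GSTP1), against 13.7% of all genes, and all below for 3 (PGD, TKT and AKR1B1), against 5.47%. Without control replicate 3 these counts were 11 members against 35.7% of all genes and 4 members against 11.8%. The 11 include AKR1C2, GPX2 and GSTM3, which were near 0 in KYSE150 and passed the filter only through KYSE510. NFE2L2 stood at 16.4, 16.4 and 17.7 RPKM in controls and 17.9, 19.2 and 19.2 in silenced libraries (0.15, SE 0.10, limma adjusted p = 0.443). MAFG stood at 6.26, 5.46 and 6.41 RPKM in controls and 7.28, 7.67 and 7.64 in silenced libraries (0.30, SE 0.09, adjusted p = 0.142). With the replicate block 2 members were higher at an adjusted p under 0.05, against 5.04% of all genes, and limma-voom with the block gave 6, in either direction, against 19.0%. The 2 were GSTP1, at 105, 99.96 and 127 RPKM in controls and 135, 129 and 156 in silenced libraries (0.34, blocked adjusted p = 0.0314), and CBR3, at 6.70, 8.21 and 11.3 and 8.46, 12.2 and 13.1 (0.36, blocked adjusted p = 0.0439). Without control replicate 3 the unblocked values were 0.44 (adjusted p = 0.0525) for GSTP1 and 0.55 (adjusted p = 0.0842) for CBR3. CBR3 also moved to 0.19 without control replicate 1 and to 0.54 without silenced replicate 1. Without control replicate 3, MAFG was at 0.34 (adjusted p = 0.0600), KEAP1 at 0.25 (adjusted p = 0.0689), NFE2L2 at 0.19, PGD at -0.12, TKT at -0.19 and AKR1B1 at -0.31 (adjusted p = 0.0644).

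PGD and TKT, enzymes of the pentose phosphate pathway, were the members whose silenced libraries lay below all controls in both lines. The share of all genes that did so in both lines was not counted. Taken line by line, 5.47% of all genes tested did so in KYSE150 and 6.87% in KYSE510. TKT (chromosome 3, 53224707 to 53256052) stood at 69.6, 69.8 and 69.9 RPKM in KYSE150 controls and 60.7, 61.8 and 60.1 in silenced libraries. In KYSE510 it stood at 111, 118 and 101 RPKM in controls and 97.5, 96.7 and 83.1 in silenced libraries. In each line every silenced library was below every control, at 87.2% and 84.1% of the control mean.

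PGD stood at 44.0, 46.1 and 43.6 RPKM in KYSE150 controls and 40.8, 43.0 and 40.1 in silenced libraries. In KYSE510 it stood at 270.0, 239 and 232 RPKM in controls and 214, 195 and 182 in silenced libraries, 79.8% of the control mean, with the groups apart in both lines. Over the mean of both lines 0 members passed the threshold, against 0.539% of all genes, with 1 higher and 7 lower at an unadjusted p under 0.05, against 7.87% and 3.59% of all genes. The mean difference was -0.22 (SE 0.06, limma adjusted p = 0.126) for TKT and -0.22 (SE 0.06, adjusted p = 0.155) for PGD. With the replicate block both were lower past the threshold (adjusted p = 0.0274 and 0.0241), against 0.679% of all genes. An exact permutation test within lines (two-sided, 400 arrangements, run for each of the 37 members) gave p = 0.005 for PGD, TKT and KEAP1, the smallest it can give. A member whose groups are apart in the same direction in both lines always gets this value, so it restates that separation.

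The mean of both lines was also below an unadjusted p of 0.05 for GCLM (-0.25, SE 0.07, limma adjusted p = 0.187), AKR1C3 (-0.24, SE 0.08, adjusted p = 0.277), ALDH3A1 (-0.20, SE 0.09, adjusted p = 0.399), GCLC (-0.16, SE 0.07, adjusted p = 0.409), AKR1B1 and KEAP1. In KYSE150, AKR1C3 rests on 3 reads in controls and 4 in silenced libraries, and ALDH3A1 on 6 and 7. Their KYSE150 change is thereby held near 0, and their mean carries the KYSE510 change only. AKR1B1 (chromosome 7, 134442350 to 134459284) stood at 17.7, 16.2 and 15.3 RPKM in KYSE150 controls and 13.9, 14.3 and 12.5 in silenced libraries, which were apart. In KYSE510 it stood at 23.3, 25.4 and 24.5 RPKM in controls and 21.1, 21.7 and 24.9 in silenced libraries, which overlapped. The mean difference was -0.19 (SE 0.06, limma adjusted p = 0.249). KEAP1 stood at 10.3, 9.66 and 11.4 RPKM in KYSE150 controls and 11.4, 12.3 and 12.05 in silenced libraries. In KYSE510 it stood at 4.11, 4.44 and 4.32 RPKM in controls and 4.78, 4.44 and 4.45 in silenced libraries, so the highest control and the lowest silenced library were almost level. Its mean difference was 0.13 (SE 0.05, adjusted p = 0.383).

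**Figure D4:**
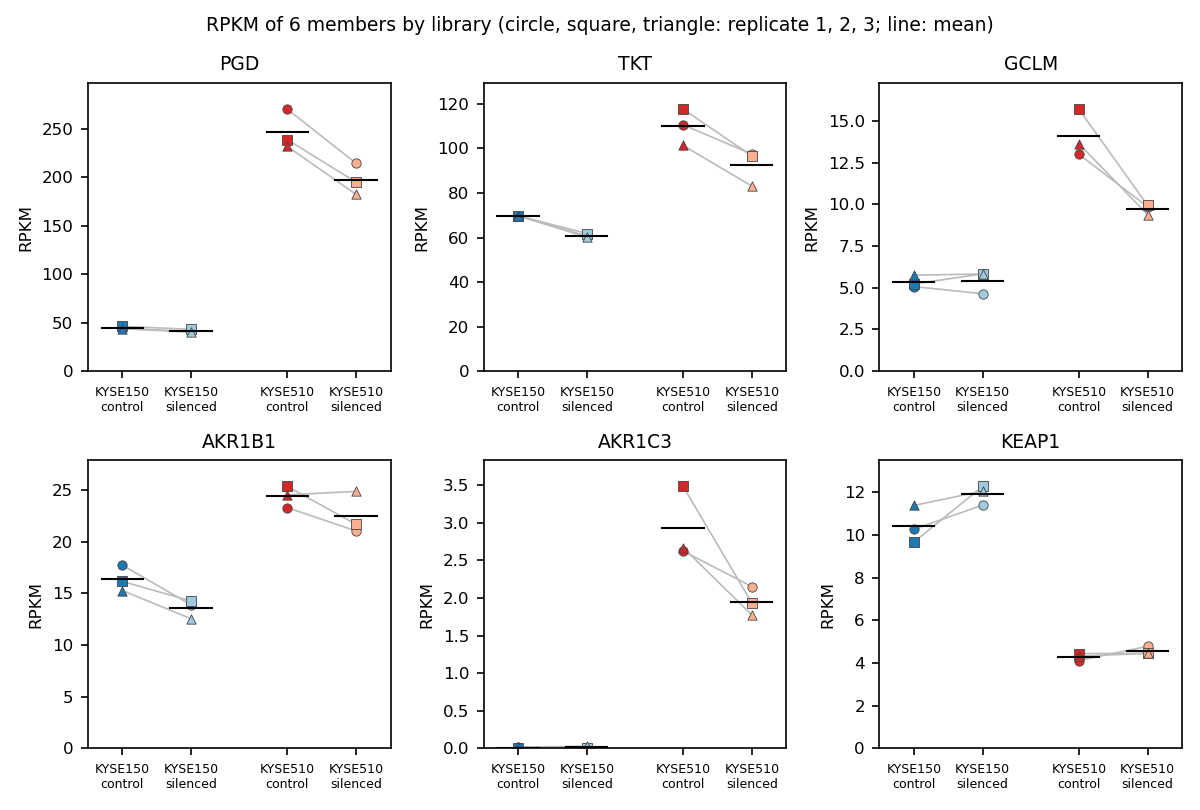
RPKM (y axis, from 0) of PGD, TKT, GCLM, AKR1B1, AKR1C3 and KEAP1 in each library of the 4 groups (x axis), with circle, square and triangle for replicates 1, 2 and 3, grey lines joining same-numbered libraries and a bar at each group mean. PGD and TKT are lower in silenced libraries of both lines, GCLM and AKR1C3 lie apart in KYSE510, AKR1B1 in KYSE150, and KEAP1 is slightly above its controls in both lines.

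The difference of the silencing effect between the lines passed the threshold for 0 of 37 members, and for 0.0% of all genes, with limma on the deposited values. At an unadjusted p under 0.05, 11 members had a lower value in KYSE510 than in KYSE150 and 0 a higher one, against 8.83% and 3.41% of all genes. The line difference had a lower value in silenced than in control libraries for 34 of the 37 members, the exceptions being CUL3, AKR1B1 and GSTM3, against 67.0% of all genes. With each library centred on its median gene this count was 26 of 37, against 44.2% of all genes. With limma-voom and the block, 8 members had a lower value in KYSE510 (MAFG, GCLM, GSTP1, SRXN1, TALDO1, FTL, UGDH and EPHX1), against 5.45% of all genes, while limma-voom alone gave 0 and the block alone gave 0.

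A wider list of 64 pathway genes from general knowledge was read from the same fit, and 55 were tested. Among controls 28 were higher in KYSE510 and 13 lower, against 28.3% and 33.7% of all genes, with a median of 0.35. The 55 include 8 genes that passed the filter only through KYSE510 and 1 only through KYSE150, and these were not set aside from the counts. The largest differences were UGT1A6 and UGT1A1, glucuronosyltransferases whose last exons are shared, so that their reads are not separate (5.66, SE 0.10, and 5.65, SE 0.10), and TXNIP, which binds thioredoxin (3.48, SE 0.20). The lowest were PRDX2, a peroxiredoxin (-5.10, SE 0.11), NFE2L3, a relative of NFE2L2 (-2.16, SE 0.13), and GSTK1, a glutathione transferase (-1.10, SE 0.12). UGT1A6, UGT1A1 and TXNIP passed the filter only through KYSE510 and PRDX2 only through KYSE150, so these 4 had to differ, while NFE2L3 and GSTK1 were lower with limma adjusted p = 6.2e-08 and 1.36e-05. In all, 46 of the 55 passed in both lines. PRDX2 had 686, 692 and 998 reads in KYSE150 controls and 2, 1 and 2 in KYSE510 controls. With limma, HCP5 silencing moved 0 of the 55 past the threshold in either line, with 10 higher and 2 lower at an unadjusted p under 0.05 in KYSE150 (13.3% and 4.82% of all genes) and 3 higher and 5 lower in KYSE510 (2.98% and 3.37%). In KYSE150, 6 of the 55 passed once the replicate number was a block, against 6.7% of all genes: PRDX5, CYP4F11, SOD2, SESN2 and SLC6A6 were higher and PIR lower.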

How the data were processed

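RNA sequencing of 12 libraries was read from 1 table of RPKM values, as deposited by the authors. HISAT2, DESeq and GRCh38 are named per the submitters' processing notes, without a role, and the annotation release, strand setting and filters are not given in the sources used here. From the table, whole reads were recovered for 100% of values (tolerance 0.01 reads) in 12 of 12 libraries, and these gave the depths.

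The values were tested as log2(RPKM + 0.5) with limma 3.58.1 in R 4.3.3, on the 17823 genes with at least 0.5 RPKM in at least 3 libraries. All 4 groups entered 1 fit with 8 residual degrees of freedom, and p-values were adjusted by Benjamini-Hochberg over all genes tested, with a threshold of 0.05. Labels give the groups the same replicate numbers. Deviations from the group means correlated at 0.147 to 0.415 between same-numbered libraries of a line (n = 6) and at -0.385 to 0.184 between others (n = 12), so the numbers were taken to pair libraries within a line. A fit with the number as a block is given where it changes a call (4 residual degrees of freedom). The recovered reads were fitted with limma-voom as an alternative, and the others were the pseudocount, the filter, centring of each library and leaving out each library. Ratios of read rates have exact 95% intervals. The code was tested on simulated data.

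Values in every library are given for NFE2L2, KEAP1 and HCP5, for members past the threshold on silencing or, with fewer than 6, those with the smallest p of the mean change up to 6, and for the 5 members highest in each line relative to the other. Further members were named for their role or after their values were seen. The members and lists were chosen with earlier results of these data known.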

Additional observations from a re-analysis of the deposited data

Results flagged for a closer look

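For 6 members, all 3 same-numbered pairs were higher after HCP5 silencing in KYSE150 and all 3 were lower in KYSE510, which 7.79% of all genes tested did. The KYSE510 change minus the KYSE150 change, on the log2(RPKM + 0.5) scale, was -0.88 for FTL, -0.53 for HMOX1, -0.44 for CBR3, -0.36 for TALDO1, -0.32 for CBR1 and -0.19 for ABCC1. Tested as an interaction with limma, none of the 6 passed the threshold: the adjusted p was 0.394, 0.425, 0.478, 0.394, 0.472 and 0.413 in that order, and 0.109 to 0.179 with the replicate block. Of these, FTL and TALDO1 passed with limma-voom and the block together.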

How the results depend on the processing

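The counts of members past the threshold between the lines kept within 1.5 times of the main count under every alternative run, with 33 to 35 among controls and 29 to 30 among silenced libraries when each library was left out. On silencing, leaving out any 1 library left 0 members past the threshold in either line, in their mean and in their difference. The replicate block gave 2 in KYSE150 and 2 in the mean of both lines, limma-voom with the block gave 6 in KYSE150, 13 in KYSE510, 5 in the mean (7.27% of all genes) and 8 in the difference, and centring gave 1 in the mean (GCLM, 0.696% of all genes). Limma-voom without the block gave 0 in each of these 4 comparisons. The cause was not tested. Values near 0 changed sign: GCLM in KYSE150 (main 0.02) was -0.11 with centring and -0.034 to 0.12 when libraries were left out. AKR1C3 in KYSE150 (main 0.0022) was -0.13 with centring, -0.23 with limma-voom, -0.12 with the block added and -0.017 to 0.018 when libraries were left out. NFE2L2 in KYSE510 (main -0.03) was 0.00024 with centring and -0.13 to 0.068 when libraries were left out, and between silenced lines (main -0.06) it was 0.13 with centring. Between control lines NFE2L2 passed the threshold only without KYSE510 control replicate 1 (0.23, limma adjusted p = 0.0444). Depth limits the members near 0 in KYSE150, of which AKR1C1, AKR1C3, ALDH3A1 and GSTM3 rest on 9, 3, 6 and 1 reads over its controls.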
